A study of Mus musculus with 9 samples.

Results

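Potassium channels let potassium ions leave or enter cells through a pore and set the resting potential and the shape of action potentials. Voltage-gated members open on depolarization, and inward rectifiers pass current mainly near the resting potential. Leak channels, with a pair of pore domains per subunit, stay open at rest. Accessory subunits have no pore of their own and change how the pore-forming subunits gate, traffic or assemble. In the mouse, the genes of these channels and accessory subunits carry names that begin with Kcn. A gene belonged to the set described here if its deposited symbol began with Kcn and its deposited type was protein coding, outside chromosome 8 from 36.02 to 78.11 Mb. This gave 93 of the 54532 genes in the table and of its 22046 protein-coding genes. The table held 99 Kcn names in all, of which 5 were not protein coding and 1 lay in the interval left out.

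The RNA came from brain cortex of adult male mice of 3 inbred strains, 3 mice each, aged 8 to 12 weeks. B6 (C57BL6/J) has the genome that serves as mouse reference, C3H (C3H/HeJ) is another classical laboratory strain and WSB (WSB/EiJ) is derived from wild mice. No treatment or engineered allele is given for any mouse. The study compared transcript levels between them in its search for genes that modulate stroke injury on chromosome 8.

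The values are FPKM, that is fragments for each kilobase of a gene after scaling between libraries. The unit adjusts for gene length and library size but not for GC content, which levels followed differently between libraries, as described below. Between 16317439 and 21562429 reads per mouse lay on genes. All 9 cortical excitatory neuron markers examined were detected, with Slc17a7 at a mean of 281, 329 and 265 FPKM in B6, C3H and WSB. The libraries differed in the levels of markers of other brain tissues and of oligodendrocytes. Whether neighbouring tissue was carried over was not tested. The summed level of 8 choroid plexus markers ranged from 65.3 to 767 FPKM among B6 mice, from 92.8 to 662 among C3H mice and from 471 to 609 among WSB mice. That of 8 striatal markers ranged from 113 to 470 (B6), from 107 to 278 (C3H) and from 83 to 224 (WSB). That of 6 thalamic markers ranged from 16.9 to 29.2 (B6), from 34.2 to 79.4 (C3H) and from 25.8 to 68.9 (WSB). For 7 hippocampal markers it was 44.7 to 60.5 (B6), 54.4 to 59.6 (C3H) and 74.6 to 85.6 (WSB). Of these 7, only Wfs1 passed between WSB and B6 in the tests described later. Its means of 30.9, 36.1 and 56.0 FPKM in B6, C3H and WSB make most of the gap between these sums. The 8 oligodendrocyte markers summed to 497 to 710 FPKM in WSB, below the 922 to 1167 of B6 and the 854 to 1138 of C3H. None of the markers in these lists was at 0 in every mouse. C3H replicate 2 stood apart from the other C3H mice in how its levels followed the GC content of transcripts, as described for C3H below. In bulk tissue, fewer cells of a type and less RNA per cell cannot be told apart, and p-values measure the spread between these 9 mice.

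The feature that the pore-forming members share is the selectivity filter, the short stretch that lines the narrowest part of the pore. A search of the coding sequence for 5 codons in a row, for threonine or serine, then valine, isoleucine or leucine, then glycine, then tyrosine, phenylalanine or leucine, then glycine, found a match in 76 of the 76 pore-forming members. It matched 0 of the 17 accessory members and 214 of 21498 other protein-coding genes (0.995%). The choices allowed take in variants that these genes carry, such as leucine at the fourth codon. The full count for pore-forming members is therefore a description and not a test. Of the 14 leak channel genes, 12 held 2 matches, and each subunit of these channels carries a pair of pore domains. The sequences below are those of 6 of the 7 pore-forming genes that differed between strains in the tests described later, read from the GRCm38 genome in the direction of the gene, with the 5 codons in capitals.
Kcna2: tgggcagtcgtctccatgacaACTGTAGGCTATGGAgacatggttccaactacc
Kcnf1: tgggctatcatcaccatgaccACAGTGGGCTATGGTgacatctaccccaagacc
Kcnh7: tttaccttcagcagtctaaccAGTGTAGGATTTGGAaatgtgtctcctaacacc
Kcnu1: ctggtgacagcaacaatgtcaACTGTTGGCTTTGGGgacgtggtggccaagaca
Kcnj11: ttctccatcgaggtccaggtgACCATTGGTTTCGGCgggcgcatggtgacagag
Kcnk1: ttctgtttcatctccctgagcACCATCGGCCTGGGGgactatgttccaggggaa
The fourth codon was one for tyrosine in Kcna2 and Kcnf1, for phenylalanine in Kcnh7, Kcnu1 and Kcnj11, and for leucine in Kcnk1. The capitals lie at chr3:107105224-107105238 on the plus strand in Kcna2 (exon 3 of 3) and at chr12:17175061-17175075 on the minus strand in Kcnf1 (exon 1 of 1). They lie at chr2:62777343-62777357 on the minus strand in Kcnh7 (exon 8 of 16) and at chr8:25881390-25881404 on the plus strand in Kcnu1 (exon 8 of 27). In Kcnj11 they lie at chr7:46099496-46099510 on the minus strand (exon 1 of 1), and in Kcnk1 at chr8:126025329-126025343 on the plus strand (exon 2 of 3). All 6 are coding exons, and the match in Kcnk1 is the only one its coding sequence held.

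Most of these genes were expressed in cortex. The mean over the 9 mice was at least 0.1 FPKM in 82 of the 93, at least 1 FPKM in 66, at least 10 FPKM in 29 and at least 50 FPKM in 3. Those 3 were Kcnab2, a beta subunit that attaches to Shaker channels (101.3 FPKM), Kcnj4, an inward rectifier (78.5 FPKM), and Kcnip2, a calcium-binding subunit of Shal channels (58.5 FPKM). The next were Kcnj9, a subunit of the channels that G proteins open (47.7 FPKM), Kcnip3 (43.7 FPKM), Kcnh3 (40.2 FPKM), Kcnk1 (36.3 FPKM) and Kcnj10, the inward rectifier of astrocytes (35.3 FPKM). At the other end, Kcna7, Kcne1, Kcnj1, Kcnk16, Kcnk18 and Kcnv2 had 3 reads or fewer in every mouse. In these libraries 10 members were tested in no comparison because their means were too low.

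**Figure D1:**
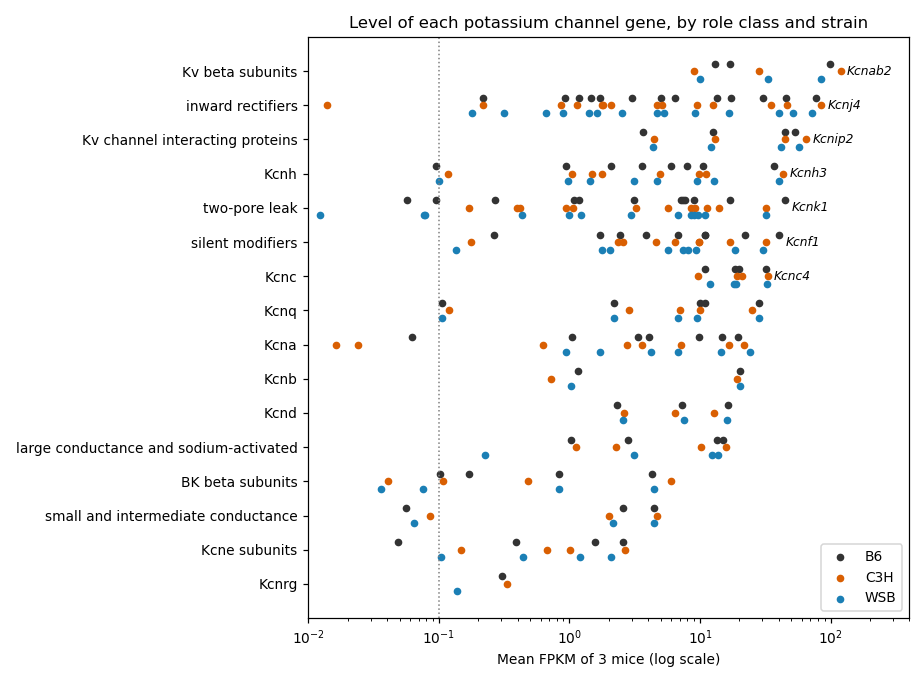
Mean FPKM of 3 mice (log scale, x axis) of each Kcn gene in B6, C3H and WSB, 1 point per gene and strain, arranged by role class (y axis), with the highest gene of a class named where its mean over the 9 mice was at least 30 FPKM. Means under 0.01 FPKM are not drawn and the dotted line marks 0.1 FPKM. Most classes span 10-fold or more between their members, while the strains of a given class cover much the same range.

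In most classes 1 or 2 members stood well above the rest, apart from the Shaw channels. Among Shaker channels, which repolarize axons, Kcna2 led with a mean of 21.8 FPKM over the 9 mice, and Kcna1 stood at 7.96 FPKM. The Shaw channels of fast-firing neurons were all present, from 10.8 FPKM for Kcnc2 to 32.5 FPKM for Kcnc4. Kcnd2 led the Shal channels of dendrites at 15.1 FPKM. Kcnq5 and Kcnq3, subunits of the M-current that limits repetitive firing, stood at 10.1 and 7.94 FPKM. Kcnt1 and Kcnma1, pores of the sodium-activated and the large conductance calcium-activated channel, stood at 14.9 and 12.1 FPKM. The small conductance channels Kcnn2 and Kcnn3 were lower, at 4.53 and 2.23 FPKM.

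Summed over a class, levels were close between strains for several of them. The 15 inward rectifiers summed to 204 to 205 FPKM in the B6 libraries, against 189 to 222 for C3H and 197 to 220 for WSB. The 4 Shaw channels summed to means of 81.2, 82.8 and 81.5 FPKM in B6, C3H and WSB. The 10 silent modifier subunits do not form channels alone but change the Shab channels they join. They summed to 96.9, 99.2 and 100.8 FPKM in the B6 mice, above the highest C3H mouse at 89.1 and the highest WSB mouse at 90.9. Part of this gap is that of Kcnf1, the highest of them, which is described below. Against B6, the log2 difference was below 0 for 7 of the 9 tested in C3H and for 6 of 9 in WSB. Over all genes tested it was below 0 for 50.4% in C3H and 49.7% in WSB. These sums are descriptions and were not tested.

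Between WSB and B6, 7 of the 79 members tested differed (8.86%; limma on log2(FPKM + 0.1), Benjamini-Hochberg adjusted p under 0.05), against 5.90% of all 20746 genes tested. Kcnab3 and Kcna2 were higher in WSB, and Kcnj11, Kcnk1, Kcnf1, Kcnu1 and Kcnq3 were lower. The share was 2.53% higher and 6.33% lower, against 2.81% and 3.09% of all genes. WSB and B6 values did not overlap for 20 of the 79 members (25.3%), against 26.0% of all genes in either direction. Of the 20, 7 were higher and 13 lower in WSB, and the share of all genes was not split this way. The log2 difference was below 0 for 60.8% of the members and 49.7% of all genes. The median log2 difference was -0.08 over the members and 0.00 over all genes.

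Kcnab3 encodes the third beta subunit of Shaker channels. The gene is on chromosome 11 (69326258 to 69333042, plus strand, GRCm38; ENSMUSG00000018470). Its level was 16.8, 13.6 and 20.8 FPKM in the B6 mice, 26.7, 25.4 and 32.3 in the C3H mice and 31.7, 32.8 and 35.4 in the WSB mice. Every WSB and every C3H mouse lay above every B6 mouse. It rose from 17.1 ± 3.6 FPKM in B6 to 33.3 ± 1.9 in WSB (SD, n = 3), which was 1.97-fold on the scale of the test, log2(FPKM + 0.1), as are the other folds of tested genes (log2 difference 0.98, standard error 0.15, adjusted p = 0.0095, limma). Kcnab3 passed in all 12 alternative analyses and in all 6 fits that each left out 1 mouse. Of the same 12 analyses, Kcnj11 passed in 11, Kcna2, Kcnf1 and Kcnk1 in 10 each and Kcnq3 in 7. Kcnu1 passed in 10 of the 11 in which it was tested. Against B6 the C3H difference was 0.73 (adjusted p = 0.0501, limma), just short of the threshold, and WSB and C3H values overlapped. An antisense gene that overlaps it, Kcnab3os, had a mean of 0.137 FPKM.

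Kcna2 encodes the Shaker pore subunit that Kcnab proteins attach to in axons. Its position is chromosome 3 (107101146 to 107115005, plus strand; ENSMUSG00000040724). It had 19.5, 19.6 and 19.9 FPKM in the B6 mice, 21.8, 21.4 and 21.5 in C3H and 25.0, 23.5 and 24.0 in WSB. The 3 strains did not overlap, with B6 lowest and WSB highest. The rise from 19.7 ± 0.2 FPKM in B6 to 24.2 ± 0.7 in WSB (SD, n = 3) was 1.23-fold (log2 difference 0.30, standard error 0.06, adjusted p = 0.0328, limma). In the 6 fits that each left out 1 mouse the log2 difference stayed between 0.27 and 0.32, while the adjusted p lay between 0.0701 and 0.129 (limma). The other Shaker pore of axons, Kcna1, went the other way without passing, with 10.2, 9.05 and 10.3 FPKM in B6 and 6.04, 6.27 and 8.09 in WSB (log2 difference -0.54, adjusted p = 0.0531, limma).

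Kcnj11 encodes the pore of the ATP-sensitive potassium channel, which closes when cellular ATP is high. Its gene spans chromosome 7 (46093953 to 46100764, minus strand; ENSMUSG00000096146). Its level was 12.3, 12.9 and 15.02 FPKM in B6, 8.91, 8.55 and 10.9 in C3H and 8.82, 9.41 and 9.23 in WSB. All 6 mice of the other strains lay below the lowest B6 mouse. It fell from 13.4 ± 1.4 FPKM in B6 to 9.15 ± 0.30 in WSB (SD, n = 3), which was 1.45-fold lower (log2 difference -0.54, standard error 0.09, adjusted p = 0.0162, limma). The adjusted p was 0.0562 without B6 replicate 2, 0.0628 without WSB replicate 1 and 0.0540 without WSB replicate 3. Kcnj8, the other pore gene of these channels, had 1.07 to 1.73 FPKM in B6 and 1.16 to 1.56 in WSB, which overlap. Their regulatory subunit Abcc8 had 3.13 to 3.96 FPKM in B6 and 3.73 to 4.64 in WSB, and did not pass.

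Kcnk1 encodes a weakly conducting leak channel. It lies on chromosome 8 (125995170 to 126030685, plus strand; ENSMUSG00000033998), outside the interval left out. Its level was 47.0, 41.7 and 46.5 FPKM in B6, 30.1, 28.5 and 37.2 in C3H and 28.9, 32.9 and 33.9 in WSB. The B6 mice were again above all 6 others. The fall from 45.1 ± 2.9 FPKM in B6 to 31.9 ± 2.6 in WSB (SD, n = 3) was 1.41-fold (log2 difference -0.50, standard error 0.09, adjusted p = 0.0170, limma). Its adjusted p was 0.0577 without B6 replicate 1, 0.0704 without B6 replicate 3 and 0.0511 without WSB replicate 1. Kcnk2, a mechanically gated leak channel, had 19.6, 17.8 and 13.6 FPKM in B6 and 9.39, 11.1 and 12.1 in WSB, which do not overlap but did not pass (log2 difference -0.63, adjusted p = 0.0601, limma).

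Kcnf1 encodes a silent modifier subunit. This single-exon gene is on chromosome 12 (17172100 to 17176888, minus strand; ENSMUSG00000051726). Its level was 39.6, 41.1 and 39.7 FPKM in B6, 37.0, 30.3 and 28.9 in C3H and 29.6, 28.6 and 32.6 in WSB, so that all B6 mice lay above all others. It was 1.32-fold lower in WSB (log2 difference -0.41, standard error 0.07, adjusted p = 0.0175, limma). Its adjusted p was 0.0871 without B6 replicate 2, 0.0623 without B6 replicate 3, 0.0680 without WSB replicate 1 and 0.0575 without WSB replicate 2.

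Kcnq3 encodes a subunit of the M-current channel. It lies on chromosome 15 (65986387 to 66286642, minus strand; ENSMUSG00000056258). Its level was 11.4, 9.41 and 9.43 FPKM in B6, 6.75, 8.04 and 6.31 in C3H and 7.90, 6.35 and 5.93 in WSB. Again every B6 mouse lay above the other 6. The fall in WSB was 1.49-fold (log2 difference -0.58, standard error 0.13, adjusted p = 0.0482, limma), the call nearest the threshold. Without any of B6 replicates 1 to 3, WSB replicate 2 or WSB replicate 3 the adjusted p lay between 0.103 and 0.137.

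Kcnu1 is best known as the potassium channel of sperm. It lies on chromosome 8 (25849623 to 25937939, plus strand; ENSMUSG00000031576), outside the interval left out. Its level in cortex was low, at 0.986, 1.19 and 0.892 FPKM in B6, 1.15, 1.16 and 1.08 in C3H and 0.0966, 0.216 and 0.366 in WSB. These values stand for 66, 90 and 71 reads in B6, 80, 84 and 78 in C3H and 6, 14 and 25 in WSB, and the WSB mice were far below all others. The log2 difference from B6 was -1.86 (standard error 0.35, adjusted p = 0.0242, limma), 3.63-fold lower on the scale of FPKM + 0.1. Its size depends on the pseudocount, from -0.73 with 1 to -2.30 with 0.01. Its adjusted p was 0.0802, 0.106 and 0.0737 without B6 replicates 1, 2 and 3, and 0.0678 without WSB replicate 2. Against C3H the log2 difference was -2.00 (standard error 0.34, adjusted p = 0.0173, limma), and from -0.80 to -2.45 with these pseudocounts, with adjusted p-values of 0.0841, 0.0700 and 0.0551 without C3H replicate 1, C3H replicate 3 and WSB replicate 2. Kcnma1, the calcium-activated channel gene most related to it, had 13.2 to 13.9 FPKM in B6 and 10.9 to 14.1 in WSB, which overlap.

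**Figure D2:**
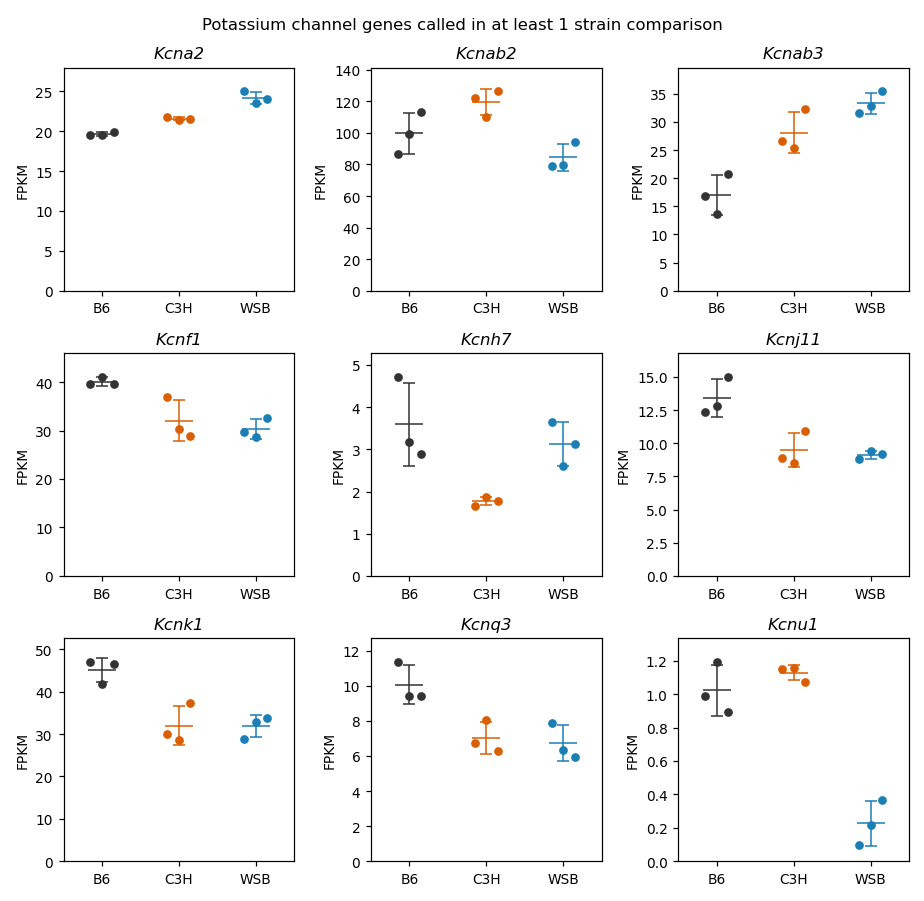
FPKM (y axis, from 0) of the 9 Kcn genes that passed the test in at least 1 strain comparison, by strain (x axis). Points are mice, and the horizontal line and bars are the mean and SD of 3 mice. For Kcnf1, Kcnj11, Kcnk1 and Kcnq3 the B6 mice lie above all 6 others, for Kcnab3 and Kcna2 below them, and for Kcnu1 the WSB mice lie apart at 0.0966 to 0.366 FPKM.

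The oligodendrocyte markers were lower in WSB: 3 of the 8 passed against B6, and the summed level of the WSB mice did not reach that of the lowest B6 mouse. Of 8 microglial markers, 2 were lower in WSB. The part of these cell types in the results on potassium channel genes was not tested. Kcnj10, which glia express, did not pass, with 32.4, 26.8 and 32.7 FPKM in B6 and 36.4, 41.0 and 42.7 in WSB (log2 difference 0.39, adjusted p = 0.0768, limma).

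Between C3H and B6, 1 of the 82 members tested passed (1.22%; limma), against 4.64% of all 20602 genes. No member was higher and 1 was lower, against 2.38% and 2.26% of all genes. C3H and B6 values did not overlap for 22 of the 82 (26.8%), against 28.9% of all genes in either direction. Of the 22, 5 were higher and 17 lower in C3H, and the share of all genes was not split this way. The log2 difference was below 0 for 52.4% of the members and 50.4% of all genes. An unadjusted p under 0.05 was reached by 20 members (24.4%), against 24.1% of all genes. The count rose to 6 with each library's dependence on GC content removed, to 11 with voom weights on the recovered reads and to 12 without C3H replicate 2. Over all genes it rose in the same fits from 956 to 1160, 1488 and 2301. Of 5 blood genes, 3 were higher in C3H, with a summed level of 632 to 1010 FPKM against 217 to 254 in B6, and their part in the results was not tested.

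The member that passed was Kcnh7, a channel of the ether-a-go-go family that helps set the resting potential. It lies on chromosome 2 (62693414 to 63184287, minus strand; ENSMUSG00000059742). Its level was 4.72, 3.17 and 2.88 FPKM in B6, 1.67, 1.87 and 1.78 in C3H and 3.65, 2.60 and 3.12 in WSB. C3H lay below both other strains, which overlapped. It fell from 3.59 ± 0.99 FPKM in B6 to 1.77 ± 0.10 in C3H (SD, n = 3), 1.93-fold lower on the scale of FPKM + 0.1 (log2 difference -0.95, standard error 0.19, adjusted p = 0.0358, limma). Without B6 replicate 1, the highest, the log2 difference was -0.74 (adjusted p = 0.0525, limma). That mouse also had the highest striatal marker sum, while within C3H and within WSB the highest Kcnh7 was in the mouse with the lowest sum. The part of striatal tissue in the Kcnh7 levels was not tested. The adjusted p was 0.0892 without B6 replicate 2, 0.133 without C3H replicate 1 and 0.114 without C3H replicate 3. Kcnh7 passed against B6 in 7 of the 12 alternative analyses. The transcript is long and poor in GC (39.6%), and with that dependence on GC removed the log2 difference was -0.63 (adjusted p = 0.0552, limma), and -0.51 with length removed as well (adjusted p = 0.105, limma). The gene's end overlaps Gca on the opposite strand (mean 2.80 FPKM), and whether counting used strand is not given in the sources used here.

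The GC content moved with the difference between C3H and B6. Over 12940 genes that averaged 1 FPKM or more, which are not independent replicates, Spearman's rho between the log2 difference and GC content was 0.485, and over the 82 members it was 0.506. After the trend was removed these were 0.015 and 0.149. The trend was not shared by the C3H mice: the rho between a library's deviation and GC content was 0.513 and 0.527 in C3H replicates 1 and 3 and -0.180 in replicate 2, over 12995 genes. Over the 66 members with a mean of at least 1 FPKM it was 0.645, 0.553 and -0.240. Libraries of the other strains differed in this too: B6 replicate 1 stood at -0.467 (-0.504 over the members) and WSB replicate 1 at -0.369 (-0.437), against -0.187 to 0.059 in the other 4. In WSB minus B6 the rho was 0.114 over all genes and 0.171 over the members, and in WSB minus C3H it was -0.397 and -0.389. The members had a median GC content of 52.0%, against 50.1% for protein-coding genes, and a median gene length of 4239 bases against 4244.

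**Figure D3:**
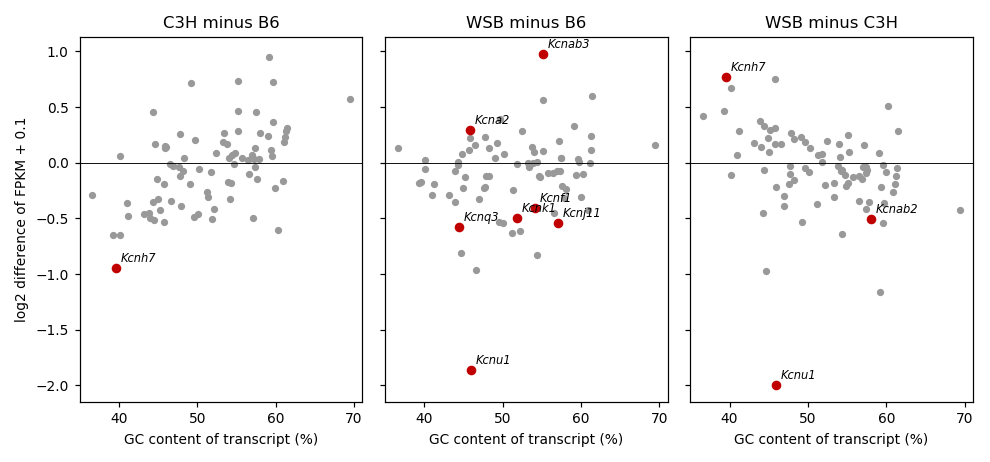
Log2 difference of FPKM + 0.1 (y axis) against the GC content of the transcript in percent (x axis) for each Kcn gene tested, in C3H minus B6, WSB minus B6 and WSB minus C3H. Red points with names passed the test. The points rise with GC content in C3H minus B6 and fall in WSB minus C3H, with rho of 0.506 and -0.389 over the members.

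With the GC trend removed, 6 members passed in C3H minus B6, all lower in C3H, in a fit in which 1160 of 20579 genes passed. Among them were Kcnj11 (log2 difference -0.64, adjusted p = 0.0106), Kcnk1 (-0.56, 0.0214), Kcnf1 (-0.44, 0.0398), Kcnq3 (-0.37, 0.0433) and Kcnk9 (-0.33, 0.0456), by limma. Without that step the log2 differences of these 5 were -0.50, -0.50, -0.33, -0.51 and -0.39, and none of the 5 passed. Kcnk9, an acid-sensitive leak channel, had 7.65, 7.25 and 7.32 FPKM in B6, 5.54, 6.15 and 5.28 in C3H and 7.02, 7.16 and 6.30 in WSB. All B6 mice lay above all others, and C3H was lowest. Both comparisons with B6 use the same 3 B6 libraries, so a shared direction in them is not independent. Over all 9 mice, B6 lay above the other 6 mice for 7 of 82 members (8.54%, against 5.05% of 20768 genes). These were Kcna1, Kcnf1, Kcnh5, Kcnj11, Kcnk1, Kcnk9 and Kcnq3. B6 lay below the others for 2 members, Kcna2 and Kcnab3 (2.44%, against 5.34%).

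Between WSB and C3H, 3 of the 82 members tested passed (3.66%; limma), against 5.74% of all 20607 genes. Kcnh7 was higher in WSB (1.22%, against 2.61% of all genes), and Kcnu1 and Kcnab2 were lower (2.44%, against 3.13%). Values did not overlap for 15 members (18.3%), 8 higher and 7 lower in WSB, against 28.6% of all genes in either direction. Kcnh7 was 1.71-fold higher in WSB (log2 difference 0.77, standard error 0.15, adjusted p = 0.0301, limma), and 0.49 with adjusted p = 0.0715 once the GC trend was removed, or 0.42 with adjusted p = 0.129 once GC and length trends were. Without C3H replicate 1, C3H replicate 3, WSB replicate 1 or WSB replicate 3 its adjusted p lay between 0.0926 and 0.117 (limma).

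Kcnab2, the most abundant member, lies on chromosome 4 (152390742 to 152477871, minus strand; ENSMUSG00000028931). It had 86.8, 99.2 and 113 FPKM in B6, 122, 110 and 126 in C3H and 79.0, 79.9 and 94.5 in WSB. All WSB mice lay below all C3H mice, with B6 overlapping both. It fell from 120 ± 8 FPKM in C3H to 84.5 ± 8.7 in WSB (SD, n = 3), which was 1.42-fold lower (log2 difference -0.50, standard error 0.10, adjusted p = 0.0271, limma). The adjusted p was 0.113 without C3H replicate 1, 0.112 without C3H replicate 3, 0.107 without WSB replicate 1 and 0.0884 without WSB replicate 2. Nphp4, on the opposite strand, overlaps its first bases and had a mean of 3.29 FPKM. Of the 3 beta subunit genes, Kcnab1 overlapped in all 3 strains, with ranges of 9.28 to 17.9 FPKM (B6), 7.83 to 10.04 (C3H) and 8.61 to 12.3 (WSB).

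Several well-known neuronal members did not pass in these tests. The log2 differences of the Shaw genes Kcnc1 and Kcnc4 from B6 lay between -0.08 and 0.06 in both strains, with standard errors of 0.09 to 0.16. Kcnip4, an accessory subunit of Shal channels, ranged from 11.5 to 13.6 FPKM (B6), 11.8 to 14.4 (C3H) and 11.6 to 12.5 (WSB). Its log2 difference of WSB from C3H was -0.11, and with the dependence on GC removed it was -0.38 and passed (adjusted p = 0.0424, limma). Kcnj9 had 39.4, 46.1 and 50.4 FPKM in B6 and 52.2, 50.8 and 51.7 in WSB, which do not overlap but did not pass (log2 difference 0.19, adjusted p = 0.310, limma). Kcnj3, its partner in the channels that G proteins open, had 17.0, 16.6 and 17.9 FPKM in B6 and 12.0, 15.1 and 10.9 in C3H, also without overlap (log2 difference -0.45, adjusted p = 0.0884, limma). Kcnj3 passed with voom weights (adjusted p = 0.0405, limma) and without C3H replicate 2 (log2 difference -0.58, adjusted p = 0.0134, limma). Kcnj6, another partner, had 1.63 to 1.88 FPKM in B6 and 1.65 to 1.90 in C3H.

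Kcne2, an accessory subunit, and Kcnj13, an inward rectifier, are both known from the choroid plexus. Kcne2 had 0.569, 3.78 and 0.319 FPKM in the B6 mice, 0.0608, 0.993 and 1.95 in C3H and 1.497, 0.556 and 1.55 in WSB. Kcnj13 had 0.616, 2.22 and 0.702 FPKM in B6, 0.381, 1.63 and 1.42 in C3H and 1.33, 0.318 and 1.03 in WSB. The summed choroid plexus markers of the same mice were 67.0, 767 and 65.3 FPKM in B6, 92.8, 451 and 662 in C3H and 540, 471 and 609 in WSB. B6 replicate 2 was highest in all 3 measures. WSB replicate 2, at 471 FPKM of markers, had the lowest Kcnj13 of all 9 mice and the lowest Kcne2 among the WSB mice. Ttr made most of the sum in every mouse, with 461 of the 471 FPKM in WSB replicate 2. That mouse was the lowest in WSB for every marker of the list but Clic6. The part of choroid plexus in these levels was not tested. Kcnj13 lies wholly within Gigyf2 on the opposite strand (mean 5 FPKM).

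**Figure D4:**
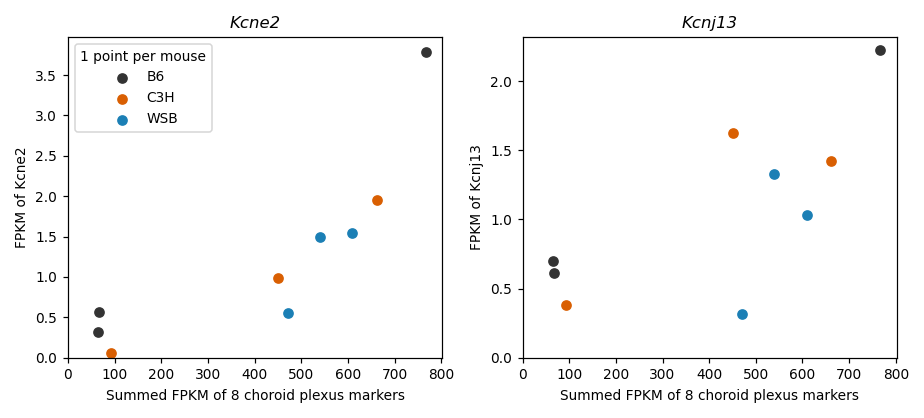
FPKM of Kcne2 (left, y axis) and Kcnj13 (right, y axis) against the summed FPKM of 8 choroid plexus markers (x axis), 1 point per mouse, coloured by strain. The mouse with the highest marker sum, a B6 mouse at 767 FPKM, had the highest level of both genes, at 3.78 and 2.22 FPKM. The lowest Kcnj13, at 0.318, was in a WSB mouse with a sum of 471. Ttr made most of each sum.

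The striatal markers of the same mice summed to 470, 255 and 113 FPKM in B6, 193, 107 and 278 in C3H and 83, 166 and 224 in WSB. Kcnab1 ranked the mice as this sum did in B6, at 17.9, 11.9 and 9.28 FPKM, and in WSB, at 8.61, 8.99 and 12.3, but not in C3H, at 7.83, 8.94 and 10.04. Kcna4 had 5.32, 3.82 and 3.11 FPKM in B6, 3.51, 4.06 and 3.25 in C3H and 4.16, 3.92 and 4.54 in WSB, and followed the sum in B6 alone. Neither gene passed in a comparison with B6, and the part of striatal tissue in their spread was not tested.

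Kcnj15, an inward rectifier singled out after its values were seen, lay under the level set for testing. It had 0 reads in all 3 B6 mice, 2, 1 and 2 in C3H and 24, 9 and 26 in WSB, with all WSB mice above all others. Against a floor of 3 reads per library, which covers counting error only, it was at least 7.41-fold higher in WSB than in B6 and at least 7.20-fold higher than in C3H. Among members with few reads that were tested, Kcnk15 had 0.510, 0 and 0.746 FPKM in C3H against 0.0703 to 0.139 in B6, where C3H replicate 2 again stood apart from the other C3H mice. Kcng4 had 3.90 FPKM in C3H replicate 3 and between 1.59 and 1.99 FPKM in the other 8 mice. The sum of thalamic markers was 79.4 FPKM in C3H replicate 3, the highest of the 9 mice, and 68.9 in WSB replicate 2. Calb2 alone made 42.7 and 48.8 FPKM of these sums. The part of thalamus in the Kcng4 level was not tested.

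Channel proteins act with partners outside the Kcn names, and 28 such genes were examined, of which 27 were tested. By limma, 2 were lower in C3H than in B6, 1 was higher in WSB than in B6 and 1 was higher in WSB than in C3H, against 4.64%, 5.90% and 5.74% of all genes called in these comparisons. Cntnap2, which clusters Shaker channels beside the node of Ranvier, had 9.60, 9.22 and 8.02 FPKM in B6, 6.75, 6.59 and 6.53 in C3H and 9.41, 9.24 and 8.74 in WSB. C3H lay below both other strains (log2 difference from B6 -0.43, adjusted p = 0.0493, and WSB above C3H by 0.46, adjusted p = 0.0174, limma). Ank3, which anchors channels at the axon initial segment, was lower in C3H than in B6 (log2 difference -0.40, adjusted p = 0.0478, limma). Hcn3, a pacemaker channel, had 2.58, 2.74 and 2.88 FPKM in B6 and 3.92, 5.23 and 4.53 in WSB, with WSB higher (log2 difference 0.71, adjusted p = 0.0204, limma). In C3H minus B6 the calls of Cntnap2 and Ank3 did not both hold once the GC trend was removed, when 1 of the 27 passed. With 1 mouse left out, the count of partners was 0 in C3H minus B6 without B6 replicate 1, B6 replicate 2, C3H replicate 1 or C3H replicate 3, 1 without B6 replicate 3 and 4 without C3H replicate 2. In WSB minus B6 it was 1 without WSB replicate 1 and 0 without any 1 of the other 5 mice. In WSB minus C3H it was 0 without C3H replicate 1, C3H replicate 3, WSB replicate 1 or WSB replicate 2, 1 without WSB replicate 3 and 3 without C3H replicate 2. The scaffolds and auxiliary subunits Dlg4, Dpp6, Lgi1 and Amigo1 passed in no comparison.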

How the data were processed

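Cortex mRNA of 3 mice per strain was sequenced as paired-end reads of 150 bp. The authors trimmed adapters with Cutadapt, and the submitters' processing notes name STAR, HTSeq and DESeq2 without versions. The authors deposited FPKM per gene and mouse. Each value times gene length was a whole multiple of a step per library (100% of values, tolerance 0.01), which gave the reads on each gene. Since FPKM are not counts, strains were compared 2 at a time with limma 3.58.1 in R 4.3.3 (lmFit and a trended eBayes, two-sided tests). Values were log2(FPKM + 0.1) of all genes whose 6 mice averaged 0.1 FPKM or more, with Benjamini-Hochberg adjustment over all of them and a threshold of 0.05. Fold changes on this scale understate those of low genes. When the test was checked on simulated data, more calls fell on unchanged genes than the threshold sets, mainly among genes under 1 FPKM, and most changes of 2-fold were missed.

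Coordinates are those of the deposited table and are the same in GENCODE M21 (GRCm38) for 89 of the 93 members. GRCm38 is the genome of B6, and any loss of C3H or WSB reads at sequence differences was not tested. GC content came from GENCODE transcripts for all 93. Coding sequences came from the same annotation, and the filter search used its codons. Figures were drawn with matplotlib 3.10.9.

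The members, the partner list and the marker lists were chosen with earlier results of these data known. The genes named were those that passed in any comparison, the highest of each role class, the 3 largest differences in each direction per comparison, and 42 with known roles in cortex, 56 in all. Other genes are named only in counts or as singled out. Alternatives were a pseudocount of 1 or of 0.01, a filter of 1 FPKM or none, protein-coding genes only, all 3 strains in one fit, no eBayes trend, voom weights on recovered reads, total-read scaling, removal of the dependence on GC, alone or with length, a replicate block, and leaving out each mouse. The limit of 3 reads covers counting error only. A few members that the naming rule covers are not reported here.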

Additional observations from a re-analysis of the deposited data

Results flagged for a closer look

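The effect of strain against B6 differed between WSB and C3H, by the direct test of WSB against C3H (limma, Benjamini-Hochberg adjusted over all genes tested), for 3 potassium channel genes. For Kcnu1 the difference was -2.00 (log2), and all 3 WSB mice lay below all 3 C3H mice (adjusted p = 0.0173, limma). For Kcnab2 it was -0.50, again with all WSB mice below all C3H mice (adjusted p = 0.0271, limma). For Kcnh7 it was 0.77, with all WSB mice above all C3H mice (adjusted p = 0.0301, limma).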

How the results depend on the processing

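None of the 11 log2 differences that passed changed sign under any alternative or with any mouse left out. For all 11 the values of the 2 strains did not overlap, so leaving out a mouse or changing the pseudocount could not change the sign. Several other alternatives, such as the fit without the eBayes trend, keep the same estimate by design. The constant sign in those fits therefore says nothing about robustness. The number of Kcn genes passing was 1 in C3H minus B6, 7 in WSB minus B6 and 3 in WSB minus C3H. In C3H minus B6 it was 5 with a filter of 1 FPKM, with all 3 strains in one fit and with protein-coding genes only, 3 with total-read scaling and with GC and length trends removed, 6 with GC trends removed, 11 with voom weights and 0 without a filter or without the eBayes trend. Leaving out 1 mouse gave 0 to 12, the highest without C3H replicate 2. Over all genes, 956 passed in the main fit and 498 to 2301 with 1 mouse left out, again the most without C3H replicate 2. In WSB minus B6 it was 10 with voom weights and 9 with protein-coding genes only. It was 8 with a filter of 1 FPKM and with all 3 strains in one fit. It was 6 with either other pseudocount, without a filter and with total-read scaling, and 2 without the eBayes trend (Kcnab3 and Kcnu1). Leaving out 1 mouse gave 2 to 5. Over all genes, 1224 passed in the main fit, 946 without the trend and 651 to 825 with 1 mouse left out. In WSB minus C3H it was 4 with GC and length trends removed. It was 2 with a filter of 1 FPKM and 1 without the eBayes trend. Leaving out 1 mouse gave 0 to 4, the highest without C3H replicate 2. Over all genes, 1182 passed in the main fit, 897 without the trend and 475 to 2002 with 1 mouse left out. Fewer genes tested enter the adjustment under a stricter filter; the cause of the other shifts was not tested.

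The replicate numbers did not pair the mice: deviations of same-numbered mice correlated between -0.157 and 0.037. In a fit with a replicate block, 1, 3 and 0 Kcn genes passed in C3H minus B6, WSB minus B6 and WSB minus C3H, and 0, 1 and 0 partner genes.

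Of 27 partner genes, 2, 1 and 1 passed in the 3 comparisons. In C3H minus B6 this was 1 with pseudocounts of 1 or 0.01, total-read scaling or GC trends removed, 0 with GC and length trends removed, without a filter or without the eBayes trend, 3 with voom weights, and 0 to 4 with 1 mouse left out. In WSB minus B6 it was 0 to 1 with 1 mouse left out. In WSB minus C3H it was 3 with all 3 strains in one fit, with protein-coding genes only and with voom weights, 2 with a filter of 1 FPKM and with total-read scaling, 0 without the eBayes trend, and 0 to 3 with 1 mouse left out. Kcnu1 was not tested under the filter of 1 FPKM, and 3 mice per strain and few reads limit what could be detected for the lowest genes.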
